A study of Kluyveromyces lactis with 6 samples.

Results

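The 6 genes described here take part in nucleoside salvage and in the supply of pyridine nucleotides in the budding yeast Kluyveromyces lactis. They were chosen by gene identifier, and all 6 were found among the 5076 genes of the deposited table: URH1 (KLLA0C06721g), PNP1 (KLLA0C16621g), NRK1 (KLLA0F24310g), ISN1 (KLLA0A02365g), POS5 (KLLA0E19097g) and BNA3 (KLLA0F01617g). RNA-seq values came from 6 libraries of 3 strains grown in rich glucose medium to early log phase: a wild type (WT, strain LRY2835) and 2 isolates of a sir2 deletion (isolate 1, strain LRY2849, and isolate 2, strain LRY2850). All 3 strains are labelled MATa with the silent mating cassettes HMR and HML deleted, so WT and sir2Δ differ in the labels only at SIR2. Each strain gave 2 libraries, which the series text calls technical replicates, so the spread within a strain is technical.

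NAD+ is an electron carrier and is also consumed by deacetylases of the Sir2 family, which split it and release nicotinamide. Cells can rebuild NAD+ from nicotinamide, nicotinic acid or nicotinamide riboside (NR), a nucleoside. In Saccharomyces cerevisiae, Urh1 (a nucleoside hydrolase that also cleaves uridine) and Pnp1 (purine nucleoside phosphorylase) split NR to nicotinamide, while Nrk1, a kinase, phosphorylates NR to nicotinamide mononucleotide. Isn1 is an inosine monophosphate nucleotidase that, in that species, also removes phosphate from nicotinamide mononucleotide and so yields NR. Pos5 is the mitochondrial NADH kinase, which makes NADPH in that compartment. Bna3 is a kynurenine aminotransferase, which in S. cerevisiae takes an intermediate of tryptophan breakdown away from the de novo route to NAD+. The genes are called by these activities below, and the activities were not tested in K. lactis.

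The deposited values are FPKM, fragments per kilobase of gene scaled by library in a way the labels do not state, so levels of different genes can be set side by side. The number of reads is unknown; FPKM summed over all genes came to between 1542502 and 1803539 in a library, a total that gives no read depth. SIR2 (KLLA0F14663g) lay at 66.9 and 64.9 FPKM in WT and between 0.0503 and 0.108 FPKM in the 4 sir2Δ libraries. Some markers of cell state also moved with genotype. Of 5 a-cell markers AGA2, BAR1 and ASG7 were higher in sir2Δ, against 20.2% of all tested genes. The summed level of the list rose from 32.8 and 34.0 FPKM to between 231 and 279 FPKM. AGA2 alone made up most of the sum in sir2Δ, at 182 to 222 FPKM beside 2.2 and 3.8 FPKM in WT. STE2, a receptor gene on that list, lay at 14.1 FPKM in both WT libraries and between 10.1 and 13.6 FPKM in sir2Δ and did not pass the test. The 2 alpha-cell markers matched, STE3 and SAG1, summed to 45.3 to 47.5 FPKM in WT and 49.4 to 61.8 FPKM in sir2Δ, and neither passed. STE3 did pass with the 6 libraries as 2 genotype groups (adjusted p = 0.0228, and 0.0363 with the replicate number as a block), and in isolate 2 against WT (0.000233, technical spread only). The a-cell marker STE6 (10.3 and 10.2 FPKM in WT, 13.4 to 15.1 FPKM in sir2Δ) did not pass either (adjusted p = 0.125 in limma). It passed in the same genotype-group fits (0.00413, and 0.00816 with the block). STE6 also passed in isolate 1 (0.0028) and isolate 2 (0.000817) against WT, on technical spread only. In WT, labelled MATa, STE3 (33.4 and 31.9 FPKM) lay above STE2, so these lists are not read as cell type here. All 6 sporulation markers were higher in sir2Δ, against 20.2% of all tested genes. SPO11 and ASG7 did not pass after quantile normalization (adjusted p = 0.300 and 0.191). The 6 sporulation markers summed to 53.5 and 61.7 FPKM in WT and 280.3 to 331 FPKM in sir2Δ. SSP2 (0.484 and 0.284 FPKM) and SPO11 (0.0456 and 0.0882 FPKM) lay near the floor in WT, and SPO11 reached only 2.88 FPKM in sir2Δ. The a-cell marker BAR1 also lay near the floor in WT (0.275 and 0.599 FPKM). Its log2 change ran from 2.69 to 5.02 over the alternatives that kept all libraries. DIT1 and DIT2 are also the neighbours of URH1 described below, so they are not a separate observation there. No marker of these lists was at 0 in any library, and the part these markers have in the results below was not tested.

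Deletion of SIR2 went with a higher level of URH1 and a lower level of BNA3, while PNP1, NRK1, ISN1 and POS5 did not pass the test. URH1 was 2.70-fold higher in sir2Δ and BNA3 was at 0.693 of its WT level. Changes were tested with limma on log2(FPKM + 1) of the strain means, 1 WT strain against 2 isolates, over 5021 genes, with a Benjamini-Hochberg adjusted p under 0.05 as the threshold. By that rule 1 of the 6 genes was higher and 1 was lower. Across all tested genes 40.1% passed, 20.2% higher and 19.9% lower, so the count among the 6 genes is near the background. Their median log2 change was 0.04, beside −0.06 over all tested genes. WT is 1 strain, so strain and genotype cannot be told apart in these comparisons.

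**Figure D1:**
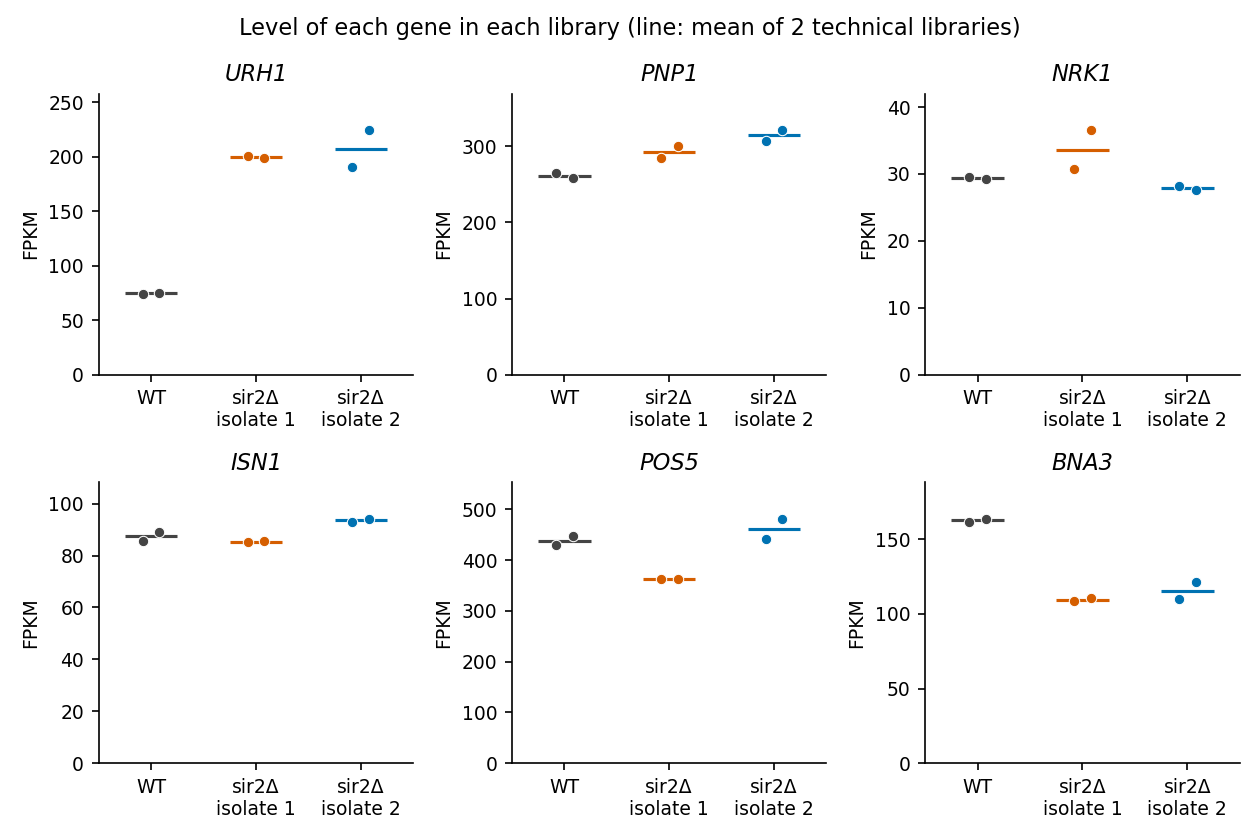
Level (FPKM, axis from 0) of URH1, PNP1, NRK1, ISN1, POS5 and BNA3 in WT and the sir2Δ isolates; each point is 1 library and each line is the mean of the 2 technical libraries of a strain. URH1 lies between 190.1 and 224 FPKM in sir2Δ against about 74 FPKM in WT, and BNA3 is the gene whose sir2Δ libraries all lie under WT.

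Among the NR-splitting enzymes, URH1 had 74.2 and 74.7 FPKM in WT, 200.3 and 199 FPKM in isolate 1 and 190.1 and 224 FPKM in isolate 2. All 4 sir2Δ libraries lay far above both WT libraries, and the isolates overlapped. Of all tested genes 34% had every sir2Δ library above WT. The log2 change was 1.43 (SE 0.14, 95% interval 1.11 to 1.76, adjusted p = 0.000184 in limma), and its rank was 273 from the highest of the 5021 tested genes. In bulk RNA a change in how many cells express a gene and a change in RNA per cell cannot be told apart. URH1 moved from above 57.6% to 57.9% of all genes in WT libraries to above 79.5% to 81.6% in sir2Δ libraries. Set against WT singly, in limma fitted to the 6 libraries, isolate 1 was higher by 1.41 (adjusted p = 6.61e-09) and isolate 2 by 1.46 (adjusted p = 3.33e-09). In that fit p-values measure technical spread only, and both contrasts share the WT libraries. Of all tested genes 67.4% passed for isolate 1 (30.8% higher, 36.6% lower) and 71.5% for isolate 2 (32.8% higher, 38.7% lower).

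PNP1, the other NR-splitting enzyme, stood at 265 and 258 FPKM in WT, 285 and 301 FPKM in isolate 1 and 308 and 321 FPKM in isolate 2. Every sir2Δ library lay above both WT libraries, but 75.3% of all tested genes were free of overlap (34% above WT and 41.4% below). The log2 change of 0.21 (SE 0.14, 95% interval −0.12 to 0.55) did not pass (adjusted p = 0.269 in limma), and the interval allows up to a 1.46-fold rise. It passed when all 6 libraries were compared as 2 genotype groups, which counts technical libraries as independent (adjusted p = 0.0461). Isolate 2 alone passed against WT (log2 change 0.26, adjusted p = 0.0134 in limma on 6 libraries) and isolate 1 did not (0.16, adjusted p = 0.112), while the difference between the isolates did not pass (adjusted p = 0.449). The isolate 2 call was lost without WT replicate 1 (adjusted p = 0.0928 in limma), without WT replicate 2 (0.148) and after quantile normalization (0.0892).

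The balance of the NR-splitting genes comes from the values above, so its shift repeats the rise of URH1 and is no added evidence. URH1 made up 21.9% and 22.4% of the summed URH1 and PNP1 level in WT, 41.3% and 39.8% in isolate 1 and 38.2% and 41.1% in isolate 2. The summed level was 339 and 333 FPKM in WT and ran from 485 to 546 FPKM in sir2Δ. PNP1 remained the more abundant of the pair in all 6 libraries, by 3.57 and 3.46 times in WT and by 1.42 to 1.62 times in sir2Δ.

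NRK1, the kinase that uses NR without splitting it, was the lowest of the 6 genes in every library. Its level was 29.6 and 29.3 FPKM in WT, 30.8 and 36.5 FPKM in isolate 1 and 28.3 and 27.6 FPKM in isolate 2. WT lay between the isolates, so the sir2Δ libraries fell on either side of it. The log2 change was 0.06 (SE 0.18, 95% interval −0.37 to 0.48, adjusted p = 0.835 in limma). Isolate 2 was lower than isolate 1 by 0.26 on the log2 scale, which did not pass (adjusted p = 0.0872 in limma on 6 libraries). It passed with the replicate number as a block (adjusted p = 0.0473) and without isolate 1 replicate 1 (0.0493), and the latter also gave a call for isolate 1 against WT (log2 change 0.30, adjusted p = 0.0193). The ratio of summed URH1 and PNP1 to NRK1 was 11.5 and 11.4 in WT, 15.8 and 13.7 in isolate 1 and 17.6 and 19.8 in isolate 2.

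ISN1, the nucleotidase, varied least of the 6 genes over the 6 libraries. WT libraries held it at 85.5 and 89.2 FPKM, those of isolate 1 at 85.1 and 85.6 FPKM and those of isolate 2 at 92.9 and 94.2 FPKM. Isolate 1 overlapped WT and isolate 2 lay just above it. The log2 change was 0.03 (SE 0.15, adjusted p = 0.881 in limma), with a 95% interval of −0.31 to 0.38, which corresponds to 0.804 to 1.30 times the WT level. In WT its level was above that of URH1, and in sir2Δ URH1 was 2.05 to 2.38 times as high as ISN1.

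POS5, the NADH kinase, was the most abundant of the 6 genes in every library and the one that differed between the isolates. WT libraries held it at 429 and 448 FPKM, both libraries of isolate 1 at 364 FPKM and those of isolate 2 at 441 and 482 FPKM. Isolate 1 lay under WT, and isolate 2 overlapped WT. Averaged over isolates the log2 change was −0.10 (SE 0.18, 95% interval −0.51 to 0.31, adjusted p = 0.687 in limma). Isolate 2 exceeded isolate 1 by 0.34 (SE 0.09, adjusted p = 0.0165 in limma on 6 libraries), or 1.27-fold. Of all tested genes 18.7% passed between isolates (7.89% higher in isolate 2 and 10.8% lower), and POS5 was the single one of the 6 genes to do so. That background is itself unsteady: 396 genes were higher and 541 lower in isolate 2, against 71 to 461 and 161 to 465 when a library was left out. Leaving out isolate 1 replicate 1 ended the call (adjusted p = 0.0656), as did leaving out isolate 2 replicate 2 (0.0950). Isolate 1 was lower than WT (−0.27, adjusted p = 0.0150), a call lost without WT replicate 1 (adjusted p = 0.0820) and without WT replicate 2 (0.178). YEF1, which encodes an ATP-NADH kinase in S. cerevisiae, was much lower in level, and POS5 exceeded it 15.5 and 15.1 times in WT and 13.6 to 21.7 times in sir2Δ.

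BNA3, the kynurenine aminotransferase, had levels of 162 and 164 FPKM in WT, 108 and 111 FPKM in isolate 1 and 109.9 and 122 FPKM in isolate 2. All sir2Δ libraries lay under both WT libraries, as they did for 41.4% of all tested genes, and the isolates overlapped. BNA3 fell by 0.53 on the log2 scale (SE 0.14, 95% interval of the change −0.86 to −0.20, adjusted p = 0.0210 in limma). It was the third most abundant of the 6 genes in WT and the fourth in both isolates, where URH1 stood above it. Against WT, isolate 1 differed by −0.57 (adjusted p = 4.82e-05) and isolate 2 by −0.49 (adjusted p = 0.000163) in limma on 6 libraries.

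The order of the levels was POS5, PNP1, BNA3, ISN1, URH1 and NRK1 in WT. In both isolates it was POS5, PNP1, URH1, BNA3, ISN1 and NRK1, so URH1 rose from the fifth place to the third. Technical libraries of neighbours in this order did not overlap in any strain. The closest pair in WT was ISN1 over URH1 (1.17 times), and in the isolates POS5 over PNP1 (1.24 times in isolate 1) and BNA3 over ISN1 (1.24 times in isolate 2).

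**Figure D2:**
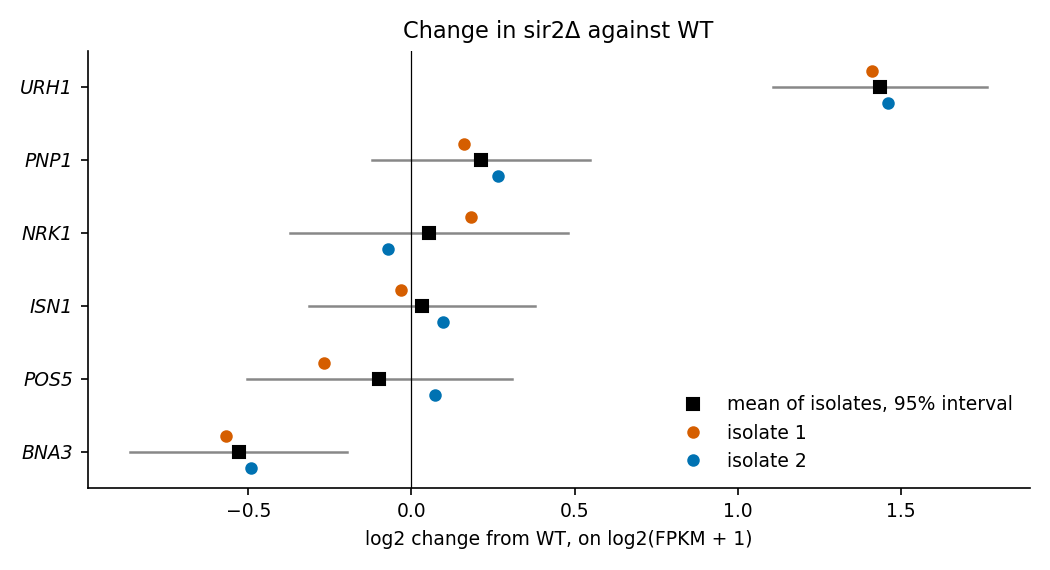
Change from WT on the log2(FPKM + 1) scale: squares give the mean of the sir2Δ isolates with the 95% interval of the limma fit to strain means, and circles give each isolate. URH1 lies at 1.43 and BNA3 at −0.53 with intervals clear of 0, and for NRK1, ISN1 and POS5 the isolates fall on opposite sides of 0 (for ISN1 and POS5 on the same side after quantile normalization, and for ISN1 after median scaling).

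URH1 stood among neighbours that also rose. The 2 genes before it in the RefSeq gene order, KLLA0C06677g and KLLA0C06699g, which have no symbol, changed by 5.14 and 4.19 on the log2 scale, and the 2 after it, DIT2 and DIT1, by 2.13 and 1.96. DIT1 and DIT2 make dityrosine of the spore wall in S. cerevisiae. KLLA0C06699g went from 54.1 and 56.9 FPKM in WT to 909 and 879 FPKM in isolate 1 and 1210.0 and 1151 FPKM in isolate 2. URH1 had the smallest change of these 5 adjacent genes, and the largest WT level, while the genes that bound them, HPT1 (−0.39) and RPB7 (0.21), did not pass. HPT1 passed without isolate 1 replicate 1 (adjusted p = 0.0455 in limma). The library kit does not keep the strand, so reads of overlapping transcripts cannot be separated, and the part of neighbouring transcripts in the URH1 value was not tested. URH1 is the 286th of 840 protein-coding genes from the nearer end of chromosome C, far from the terminal genes.

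ISN1 and POS5 each lay beside a gene with a strong rise and did not pass themselves. KLLA0A02387g, next to ISN1, was at 5.38 and 8.28 FPKM in WT and between 98.7 and 109 FPKM in sir2Δ (log2 change 3.76), and the gene after it, KLLA0A02431g, rose by 1.30. KLLA0E19075g, next to POS5, was at 1.72 and 0.926 FPKM in WT and between 47.7 and 61.2 FPKM in sir2Δ (log2 change 4.61). Beyond it UIP4 rose by 0.96 and MRN1 fell by 0.82. On the other sides of ISN1 and POS5, PNS1 (−0.27) and MMS2 (0.13) did not pass.

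The changes of the neighbours of PNP1, NRK1 and BNA3 were smaller. Beside PNP1, DHH1 (0.46), which encodes an RNA helicase of mRNA decay, was higher, and the next gene, the MAP kinase kinase gene STE7 (−0.53), was lower. Leaving out isolate 1 replicate 2 ended the calls of DHH1 (adjusted p = 0.233), STE7 (0.0805) and NUP82, described next (0.0582). Leaving out isolate 2 replicate 1 ended that of DHH1 (0.0567), and leaving out isolate 2 replicate 2 those of STE7 (0.0730) and NUP82 (0.0594). Without the intensity trend DHH1 (0.0603) and NUP82 (0.0509) did not pass, nor did NUP82 with median scaling (0.0604) or no filter (0.0510). TEP1 beside NRK1 was higher (0.67). Near BNA3, YHC3 was higher (0.59) and the nucleoporin gene NUP82 lower (−0.50). Of the 36 neighbours of the 6 genes, 3 on each side, 11 were higher and 3 lower, against a background of 20.2% and 19.9%, and the 22 that did not pass lay between −0.47 and 0.30.

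**Figure D3:**
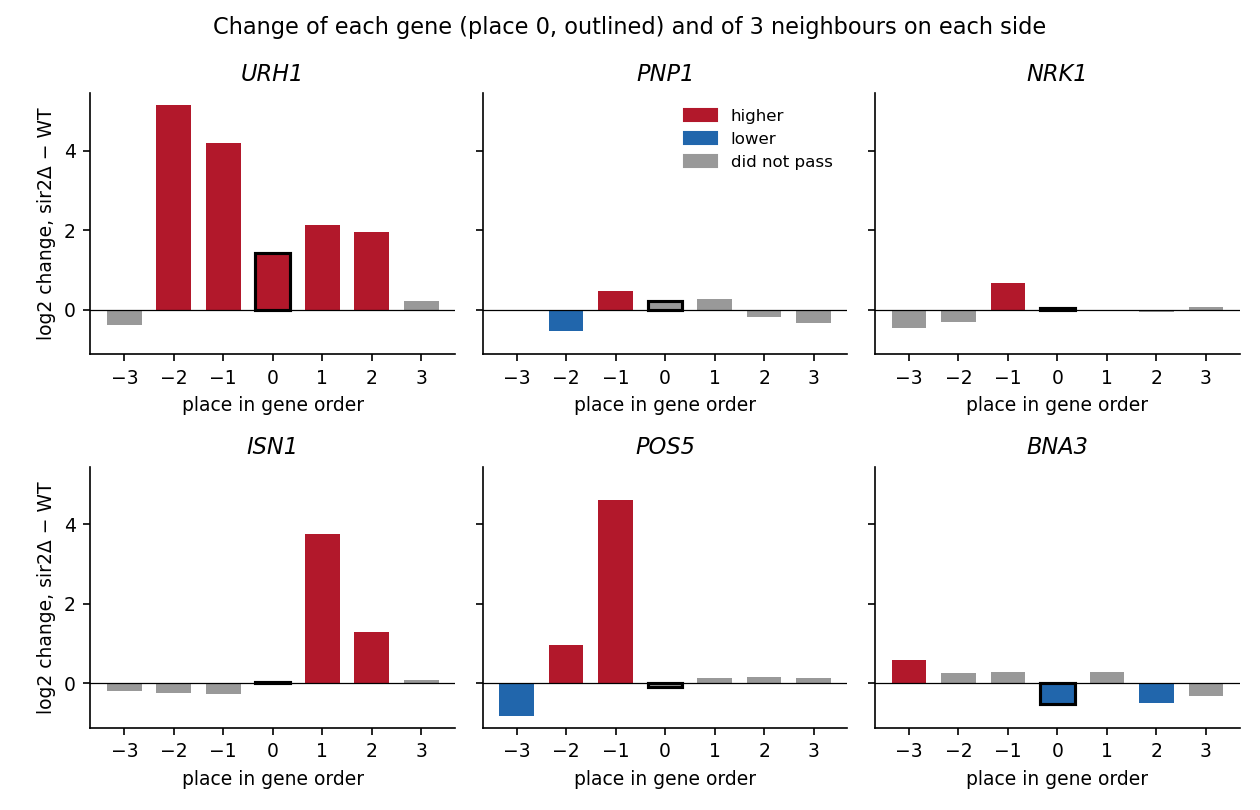
Log2 change in sir2Δ against WT of each of the 6 genes (outlined, place 0) and of the 3 annotated protein-coding genes on each side, in gene order and not to distance. Red bars are higher, blue bars lower and grey bars did not pass; URH1 sits in a block of 5 higher genes, and ISN1 and POS5 change little beside neighbours at 3.76 and 4.61.

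The genes whose pattern over the 6 libraries was most like that of each gene were found by the Euclidean distance between log2(FPKM + 1) values, each gene centred on its own mean. Nearest to URH1 were BOL3 (distance 0.121), AGP2 (0.136) and the malate dehydrogenase gene MDH3 (0.145), all higher in sir2Δ, with changes of 1.41, 1.48 and 1.36. Nearest to BNA3 were the ribosomal protein gene RPS8A (0.080), the phosphatidylinositol synthase gene PIS1 (0.084) and KLLA0B05742g (0.085), which were lower by −0.56, −0.55 and −0.59. The calls of RPS8A (adjusted p = 0.117) and KLLA0B05742g (0.0657) were lost without isolate 2 replicate 1, and that of RPS8A with median scaling (0.0572).

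Since the distance uses the same values as the change, the nearest genes have near-equal changes by construction. For the genes that did not pass, they were KLLA0C04004g, the coatomer gene SEC28 and EPS1 for PNP1 (0.049 to 0.055). They were STR3, the nuclear pore gene POM152 and AXL2 for NRK1 (0.104 to 0.128). They were MAK32, the mevalonate pathway gene MVD1 and NTA1 for ISN1 (0.054 to 0.064). For POS5 they were TRP4 of tryptophan synthesis, SGT2 and RMD8 (0.097 to 0.109). Among the 6 genes the closest pair was PNP1 and ISN1 (0.228), and PNP1 held rank 455 among the genes nearest to ISN1.

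Genes of NAD+ synthesis and salvage outside the 6 included larger rises than that of URH1. Of 27 names on that list 14 matched a symbol, the 6 genes included, and BNA3 was the only BNA gene among them. A de novo route to NAD+ in this yeast was therefore not examined. Of the other 8 genes 4 were higher, 0 lower and 4 did not pass, with a median log2 change of 0.48 (background 20.2% higher, median −0.06). NPT1, nicotinate phosphoribosyltransferase, was at 102 and 109.5 FPKM in WT and between 877 and 933 FPKM in sir2Δ (log2 change 3.08, adjusted p = 2.73e-06 in limma). The nicotinic acid transporter gene TNA1 rose by 2.16, the NAD+ synthetase gene QNS1 by 1.10 and the nicotinamidase gene PNC1 by 0.66. NMA2 (0.29), which encodes an adenylyltransferase downstream of both nicotinic acid and NR, PHO8 (−0.16) and YEF1 (−0.18) did not pass.

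Genes of purine and pyrimidine salvage moved in both directions. Of 31 names 22 matched, and of the 19 besides URH1, PNP1 and ISN1, 3 were higher, 4 lower and 12 did not pass (median −0.25). These shares are near the 20.2% higher and 19.9% lower of all tested genes (median −0.06), and 10 genes of the list were lower after quantile normalization. FUN26, a vacuolar membrane transporter that carries nucleosides including NR in S. cerevisiae, went from 46.2 and 45.5 FPKM in WT to between 113 and 129 FPKM in sir2Δ, a change of 1.40 (adjusted p = 0.000285 in limma), near that of URH1. The mitochondrial adenylate kinase gene ADK2 rose by 1.17 and the guanine deaminase gene GUD1 by 0.65. AAH1, adenine deaminase, went from 425 and 442 FPKM to between 156 and 162 FPKM, a change of −1.44 (adjusted p = 0.000166 in limma). XPT1, a phosphoribosyltransferase for xanthine (−0.81), the deoxycytidylate deaminase gene DCD1 (−0.71) and the guanylate kinase gene GUK1 (−0.62) were also lower. YNK1 (0.43), URK1 (0.29), HPT1 and the uracil phosphoribosyltransferase gene FUR1 (−0.44) did not pass. YNK1 (adjusted p = 0.0104), HPT1 (0.00149) and FUR1 (0.000407) passed after quantile normalization.

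Genes that supply NADPH or oxidise NADH, the setting in which POS5 works, included several higher genes. Of 22 names 12 matched, and of the 11 besides POS5, 6 were higher, 1 lower and 4 did not pass (median 0.57), against 20.2% higher and 19.9% lower over all tested genes (median −0.06). The mitochondrial aldehyde dehydrogenase gene ALD4 rose by 3.41, the NADP-dependent isocitrate dehydrogenase genes IDP1 and IDP3 by 2.66 and 1.78, ZWF1 of the pentose phosphate pathway by 0.86 and the NADH dehydrogenase gene NDI1 by 0.85. The malic enzyme gene MAE1 rose by 0.56, a call lost without isolate 1 replicate 2 (adjusted p = 0.0634 in limma). ALD5 was lower (−1.02, adjusted p = 0.0455 in limma). That call ended on leaving out WT replicate 2 (change −0.79), isolate 1 replicate 1 (−0.86) or isolate 2 replicate 2 (−1.05). For ALD5 isolate 1 (249 and 388 FPKM, change −0.51) overlapped WT (378.5 and 517 FPKM). Isolate 2 (146.5 and 159 FPKM, change −1.53) lay under both strains. The isolates differed by −1.02 (adjusted p = 0.00109 in limma on 6 libraries, technical spread only). ALD6 (0.38) did not pass, but did so without isolate 1 replicate 1 (adjusted p = 0.0494), and GND1 (0.26) and GLR1 (−0.13) did not.

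**Figure D4:**
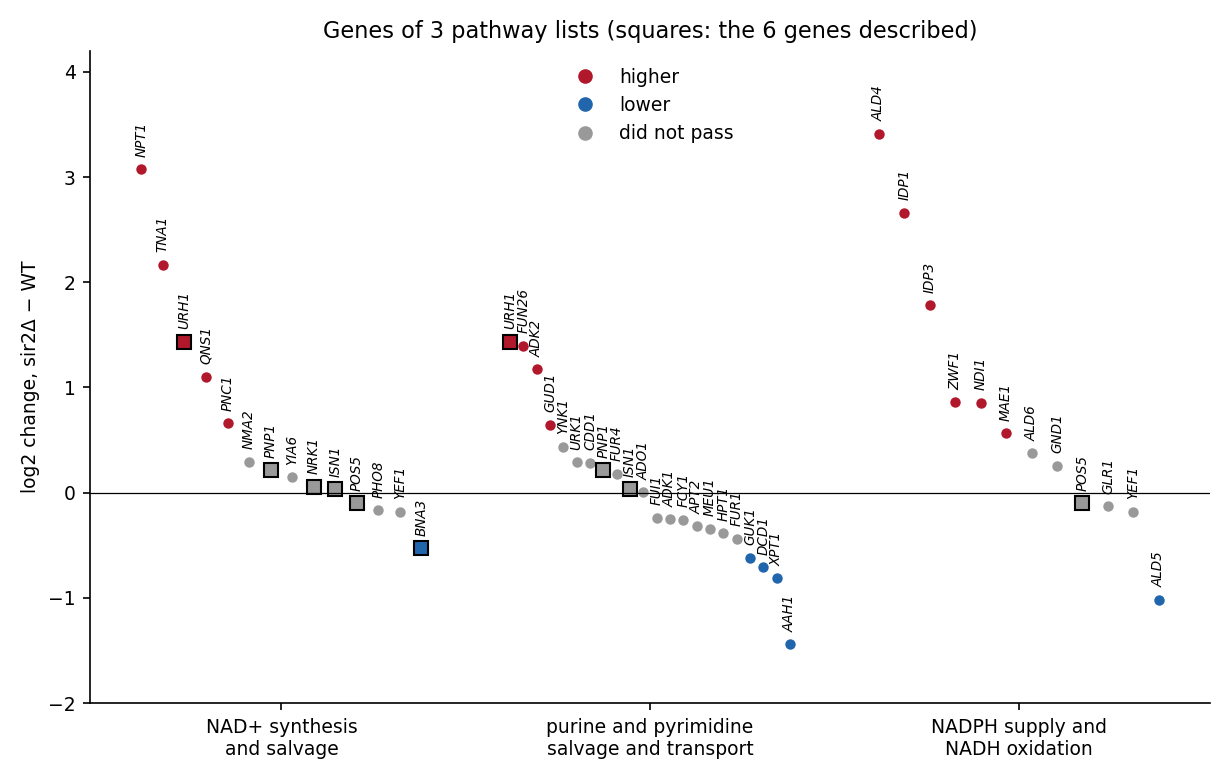
Log2 change in sir2Δ against WT of each matched gene on the lists for NAD+ synthesis and salvage, purine and pyrimidine salvage and transport, and NADPH supply and NADH oxidation; genes on more than 1 list appear in each. Squares mark the 6 genes, red is higher, blue lower and grey did not pass; URH1 leads the purine and pyrimidine list at 1.43, while NPT1 (3.08) and TNA1 (2.16) lie above it in the NAD+ list.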

How the data were processed

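RNA from WT and from sir2Δ isolates 1 and 2 was sequenced from a non-stranded library kit, per the labels' protocols. The authors deposited FPKM values for 5076 genes, for which the submitters' processing notes name TopHat2 2.0.10 and Cuffnorm 2.2.1. Build, annotation and scaling option are not stated in the labels or headers. Low values did not fall on whole-read steps, so counts could not be recovered and counting error is not given. RefSeq assembly ASM251v1 matched all 5076 identifiers and was used for symbols and gene order; no coordinates or sequences are given. SIR2 was identified from general knowledge.

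Values were taken as log2(FPKM + 1), which understates changes of low genes. Testing covered the 5021 genes whose strain means averaged 1 FPKM or more (55 left out), and all 6 genes passed that filter. Limma 3.58.1 (R 4.3.3, intensity trend) compared strain means with 1 residual and 7 prior degrees of freedom, so WT was assumed to vary like the isolates. Contrasts of single isolates came from the 6 libraries in 3 strain groups. The procedure was tested on simulated data. The 6 genes and the lists were chosen with earlier results of these data known. List members were matched by symbol. The genes named are the 6, SIR2, list genes that passed, the 2 highest and 2 lowest list genes that did not, markers, neighbours and the 3 genes most like each; other neighbours that did not pass are given as a range. Alternatives were other pseudocounts, filters, scalings and fits, and leaving out each library.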

Additional observations from a re-analysis of the deposited data

Results flagged for a closer look

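POS5 is flagged because its level differed between the isolates under the same contrast with WT. The difference, isolate 2 minus isolate 1, was 0.34 on the log2 scale (SE 0.09, adjusted p = 0.0165, limma on 6 libraries), with both isolate 2 libraries (441 and 482 FPKM) above both isolate 1 libraries (364 FPKM each). The test rests on technical spread between 2 libraries of each isolate. The call was lost without isolate 1 replicate 1 (log2 difference 0.34) and without isolate 2 replicate 2 (0.28). Over the alternatives that kept all libraries the difference ran from 0.255 to 0.342 (adjusted p up to 0.0417 in limma). FPKM summed over all genes was higher in isolate 2 (1667185 and 1803539) than in isolate 1 (1542502 and 1594267). The main fits did not rescale the libraries. Of all tested genes 18.7% passed between the isolates.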

How the results depend on the processing

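The calls of URH1 (log2 change 1.38 to 1.49) and BNA3 (−0.57 to −0.49) kept their direction and side of the threshold under all 14 alternatives. Of 84 values for the 6 genes against WT, 82 did so. The exceptions are PNP1, which passed at 0.21 with 6 libraries in 2 genotype groups and no block, and NRK1, whose change ran from −0.005 to 0.12 over left-out libraries. Same-numbered libraries were not paired in the main fits. Their deviations correlated at 0.005 for WT and isolate 1 and 0.055 for WT and isolate 2. The correlation was highest, 0.206, for isolate 1 and isolate 2, where an effect of replicate number was not tested by itself. Adding the replicate block to the fit of 3 strain groups let NRK1 pass between isolates (−0.26). Genes higher against WT (1013 in the main fit) ran from 949 to 1477 over the alternatives that kept all libraries. Entering the 6 libraries as 2 genotype groups in place of strain means, which counts technical libraries as independent, raised the lower genes against WT from 1000 to 1740, and to 1675 when the block was added to that fit. The same change took the purine and pyrimidine list from 4 higher and 4 lower to 8 and 9, and to 7 and 9 with the block. Quantile normalization of the strain-mean fit gave 10 lower there. ALD5, the only lower gene of the NADPH list, was lost, leaving 0 lower, with median scaling, no filter or no intensity trend, and that count ran from 0 to 1 over left-out libraries. Over left-out libraries, differences between isolates ran from −0.07 to 0.17 for URH1, −0.38 to −0.14 for NRK1 and 0.28 to 0.40 for POS5. Genes higher in isolate 2 than isolate 1 numbered 71 to 461 (396 with all libraries) and genes lower 161 to 465 (541). Signs turned after quantile normalization for URH1 between isolates (−0.026), POS5 in isolate 2 (−0.13), ISN1 in isolate 1 (0.004), STR3 (−0.37), SAG1 (−0.012) and MVD1 (−0.036), and after median scaling for ISN1 in isolate 1 (0.006) and RMD8 (0.001). Over left-out libraries AXL2 ran from −0.026 to 0.072, STR3 from −0.038 to 0.070 and MVD1 from −0.007 to 0.063. None of these signs belonged to a call. Of 1075 values of the other 77 named genes, 22 lost a call and 23 gained one. The causes were not tested. Read depth is unknown, so its limits cannot be given.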
